A study of Homo sapiens with 27 samples.

Results

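The 40 genes described here encode proteins that carry a cell through mitosis, from the cyclins and kinases that start it to the proteins that pull the daughter cells apart. They were taken by gene symbol from a list of mitosis genes, and all 40 were found among the 55882 gene symbols counted in each library. A cell enters mitosis when the kinase CDK1 is switched on by its cyclin partners. The spindle then binds the chromosomes at kinetochores, which are built on the centromeres, and the spindle checkpoint holds back the anaphase-promoting complex (APC/C) until the chromosomes are attached. Most of these genes are transcribed late in the cell cycle under FOXM1, B-MYB and the MuvB complex, and the DREAM complex keeps them low in resting cells, which is why their mRNA is widely read as a measure of proliferation.

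To follow the mRNA changes that accompany loss of the MMP-2 protease during cell expansion, poly(A) RNA was sequenced from U2OS cells, an established human osteosarcoma line. The control line, titled WT in the labels, carried a blank pLKO.1 vector according to their treatment notes, whereas MMP2sh1 and MMP2sh2 each carried a different short hairpin RNA (shRNA) against MMP2 in the same vector. The study's methods describe lentiviral transduction and puromycin selection, so the control shares the vector, and with 1 line per shRNA an effect of the line and an effect of its shRNA cannot be told apart. Each line was collected as subconfluent (day −2), confluent (day 0) and overconfluent (day 2) cultures in medium with fetal bovine serum, with 3 biological replicates in each of the 9 groups and 27 libraries in all.

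Reads counted on genes ranged from 33580129 to 59374327 per library (median 40075178), and the 40 mitosis genes took 0.614% to 0.851% of them. MMP2 mRNA in MMP2sh1 cells was 17.3% to 19.8% of the control level over the stages, and in MMP2sh2 cells 48.2% to 62.6%. Of the 7 osteoblast lineage markers examined, 5 were above 1 CPM (a count scaled to the size of its library) on average, while COL1A2 reached at most 0.681 CPM and BGLAP 0.573 CPM. The summed levels of epithelial, blood and endothelial markers were at most 8.54, 1.43 and 5.01 CPM. The libraries were scaled with TMM factors (trimmed mean of M values), and a gene was called higher or lower in a comparison when its p from edgeR's quasi-likelihood fit, adjusted by the Benjamini-Hochberg method over all genes tested, was under 0.05. All fold changes are on the log2 scale, with the standard error (SE) beside them.

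The 40 genes were well covered, with between 958 reads (CDC25C) and 61546 reads (TOP2A) in a single library, and all 40 were tested in every comparison. Per kilobase of exon, the highest mean level in subconfluent control cells was that of CDC20 at 209 CPM per kb, the activator of the APC/C. It was followed by CCNB1 (cyclin B1) at 169, TOP2A (topoisomerase II alpha, which untangles sister chromatids) at 116 and UBE2C (an APC/C ubiquitin-conjugating enzyme) at 92.3 CPM per kb. The lowest was CENPE, a kinesin of the kinetochore, at 7.55 CPM per kb. The order depends on this choice of length, since the canonical transcript can be much shorter (2160 against 4760 bases for PLK1). The plot of the median over the 40 genes in each library shows the course of the group as a whole. Relative to subconfluent control cells, the library median lay between −0.028 and 0.010 in the 3 subconfluent control libraries, between 0.097 and 0.10 at confluence and between −0.24 and −0.15 in overconfluent cells. The 3 control stages did not overlap. Of the 3 subconfluent MMP2sh1 libraries, replicate 1 stood above the rest, at 0.044 against −0.085 and −0.095.

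**Figure D1:**
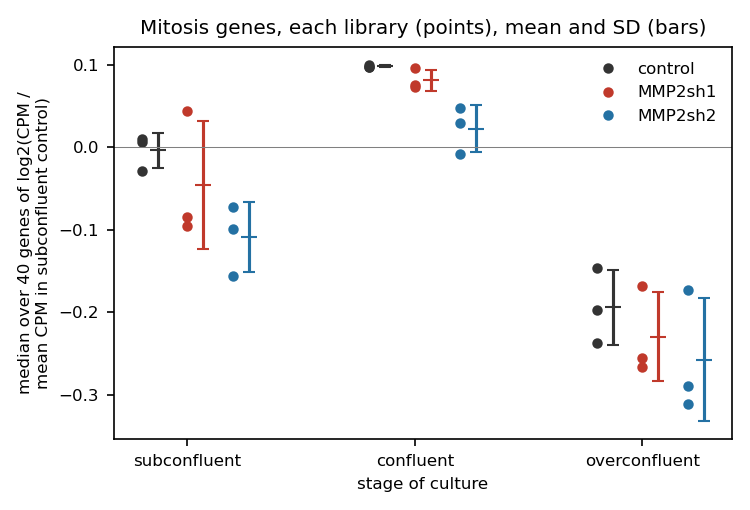
The median over the 40 mitosis genes of the log2 ratio of CPM to the mean CPM in subconfluent control cells (vertical axis), for each of the 27 libraries (points) with the mean and SD of 3 libraries (bars), by stage (horizontal axis) and line (colour). In all 3 lines the overconfluent libraries lie lowest, between −0.31 and −0.15.

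To see how the mitosis genes behaved as control cells reached confluence, confluent cells (day 0) were compared with subconfluent cells (day −2). Of the kinetochore genes 4 of 6 rose, as did 5 of 6 spindle-associated proteins, 3 of 7 kinesins, TOP2A, CDK1, ECT2 and the checkpoint genes TTK, BUB1 and BUB1B, whereas FOXM1, CCNA2, PLK1, CDC20 and UBE2C fell. Of the 40 genes 18 rose and 5 fell, against 16.4% and 19.1% of all genes tested, and their median change was 0.10. The median over all genes tested lay between −0.0032 and 0.048 in the 20 comparisons described here. With library totals in place of TMM scaling, which moved the median of all genes by up to 0.14 over the comparisons, 21 rose and 1 fell, and in the absence of subconfluent replicate 2 there were 11 that rose and 3 that fell. Because cultures were measured in bulk, fewer cells in mitosis and less mRNA per cell cannot be told apart in any comparison of these cultures.

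CENPE, on chromosome 4 of GRCh37 (104026506 to 104119602, minus strand), rose the most of the 40. Its level was 74.1, 71.4 and 79.3 CPM in the subconfluent libraries and 124, 117 and 110.3 CPM in the confluent ones, a change of 0.64 (SE 0.055, adjusted p = 3.8e-10), and every confluent library lay above every subconfluent one. CENPF, a large kinetochore and matrix protein, was at 340.3, 323 and 381 CPM and then at 509, 531 and 470.1 CPM, a change of 0.53 (SE 0.053, adjusted p = 7.53e-09). NDC80 and NUF2, which form part of the complex that holds microtubules, changed by 0.28 and 0.36. CENPA, the histone H3 variant of centromeres, and SPC25, a further subunit of the NDC80 complex, did not pass the test, at −0.077 and −0.12. Of the kinesins, KIF18A, which damps chromosome movement on the spindle, rose by 0.49, KIF14 by 0.32 and KIF4A by 0.16. Of the 6 spindle-associated proteins 5 rose, between 0.11 (PRC1, which bundles midzone microtubules) and 0.34 (HMMR), whereas TPX2, the activator of Aurora A, was at −0.051 and did not pass the test.

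TOP2A (chromosome 17, 38544777 to 38574148, minus strand) was at 750.4, 712 and 759 CPM in subconfluent and 1029, 1044 and 996 CPM in confluent cells, with no overlap, a change of 0.47 (SE 0.041, adjusted p = 6.05e-10). CDK1, the kinase that starts mitosis, was at 157, 157 and 158 CPM and then at 170.2, 171 and 172 CPM, also with no overlap, a change of 0.12 (SE 0.043, adjusted p = 0.0263). Its cyclin partner CCNB1 was at −0.058 (SE 0.041, adjusted p = 0.293) and MKI67, the gene of the Ki-67 proliferation marker that coats mitotic chromosomes, at −0.059 (SE 0.045, adjusted p = 0.331). Neither passed the test.

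The genes that fell at confluence, 5 of 40 against 19.1% of all genes tested, were FOXM1, PLK1, CDC20, UBE2C and CCNA2. With the adjustment for GC content described below, CDC20 and UBE2C were not called lower. FOXM1 (chromosome 12, 2966846 to 2986340, minus strand), the transcription factor of many genes in the list, was at 362, 343 and 344 CPM in subconfluent and 288, 295 and 294 CPM in confluent libraries, a change of −0.26 (SE 0.042, adjusted p = 1.49e-05). PLK1, a kinase that acts at centrosomes and kinetochores, changed by −0.15 (SE 0.043, adjusted p = 0.00775), and CDC20 by −0.15 (SE 0.043, adjusted p = 0.00609). UBE2C changed by −0.16 and CCNA2, the cyclin A2 gene, by −0.14. The confluent libraries of FOXM1, PLK1 and CDC20 all lay below the subconfluent ones.

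**Figure D2:**
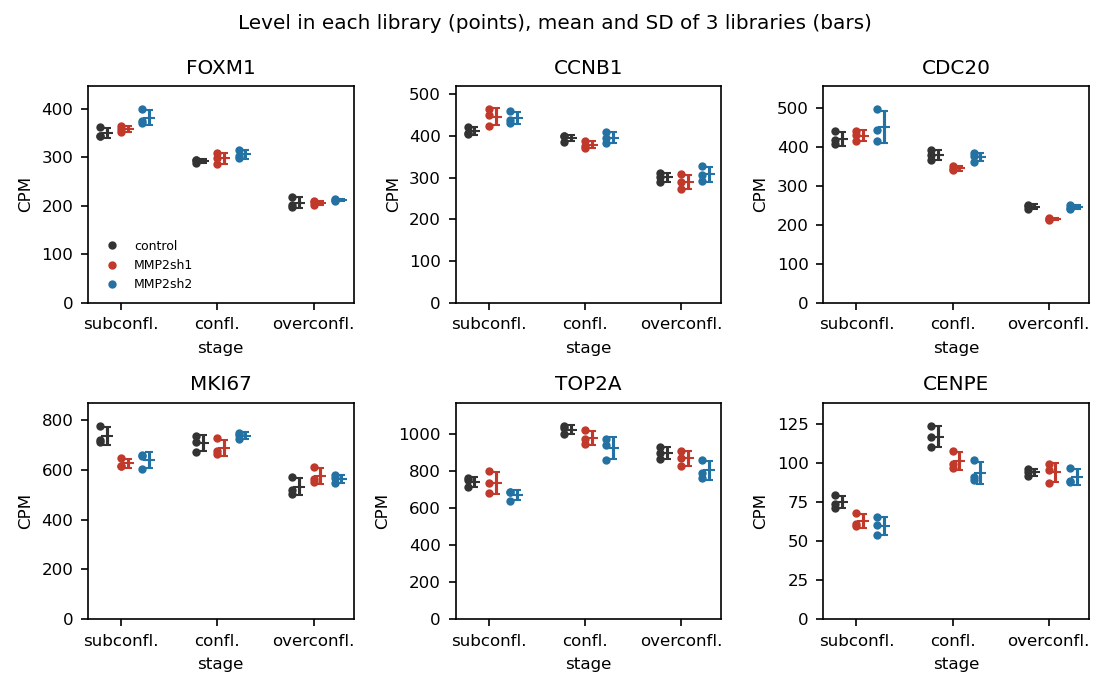
Levels in CPM (vertical axes, from 0) of FOXM1, CCNB1, CDC20, MKI67, TOP2A and CENPE in each of the 27 libraries (points), with the mean and SD of 3 libraries (bars), by stage (horizontal axes) and line (colour). FOXM1 and CDC20 step down at each stage, whereas TOP2A and CENPE are highest at confluence in every line.

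Overconfluent cells (day 2) were next compared with confluent cells. The mitosis genes fell almost together after confluence, in every role. Of the 40 genes 33 fell, against 20.1% of all genes tested, with a median change of −0.30. By edgeR 0 rose, against 21.3% of all genes, 0 were higher at an unadjusted p under 0.05 and 0 rose by DESeq2. The counts were 5 of 6 for the entry switch (the cyclins, CDK1, CDC25C and FOXM1), 4 of 5 for the mitotic kinases and the passenger complex, 4 of 6 for the spindle checkpoint and anaphase, 5 of 6 for the kinetochore, 7 of 7 kinesins, 4 of 6 spindle-associated proteins, and both genes of chromosome structure and of cytokinesis.

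The largest fall was that of ANLN, anillin, a scaffold of the contractile ring (chromosome 7, 36429430 to 36493400, plus strand). It was at 457, 497 and 466 CPM in confluent and 323, 292 and 289 CPM in overconfluent cells, a change of −0.65 (SE 0.047, adjusted p = 1.65e-12). CDC20 (chromosome 1, 43824652 to 43828874, plus strand) was at 366, 377 and 391 CPM and then at 239, 248.5 and 249.8 CPM, a change of −0.62 (SE 0.045, adjusted p = 1.3e-12). CCNA2 fell from 204, 192 and 195 CPM to 131, 131 and 133 CPM, a change of −0.58 (SE 0.047, adjusted p = 1.51e-11). None of the 3 genes had an overlap between the groups. FOXM1 changed by −0.50 (SE 0.047, adjusted p = 3.82e-10), CCNB1 by −0.39 (SE 0.044, adjusted p = 1.58e-08) and MKI67 by −0.41 (SE 0.047, adjusted p = 1.99e-08). The changes of CDK1, PLK1 and TOP2A were smaller. CDK1 changed by −0.21 (SE 0.046, adjusted p = 0.000387), PLK1 by −0.29 (SE 0.048, adjusted p = 1.04e-05) and TOP2A by −0.19 (SE 0.041, adjusted p = 0.00041).

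Among the others, AURKA (Aurora A, a centrosome kinase) changed by −0.47, AURKB (Aurora B, the kinase of the chromosomal passenger complex) by −0.29 and BIRC5 (survivin, of the same complex) by −0.32. The checkpoint kinases TTK and BUB1 changed by −0.51 and −0.39, and BUB1B by −0.37. ASPM, a spindle pole protein, changed by −0.57, and ECT2, which activates RhoA at the cleavage furrow, by −0.41. The kinesins ranged from −0.39 (KIF23, of the central spindle) to −0.13 (KIF2C, which takes microtubules apart). The 7 genes that did not pass the test were CDC25C (−0.095), NEK2 (−0.12), UBE2C (−0.00073), PTTG1, the securin that holds back separase (−0.00025), SPC25 (−0.021), NUSAP1 (−0.064) and HMMR (−0.020). SPC25 was at 49.3, 53.3 and 50.2 CPM before and 49.5, 50.2 and 50.3 CPM after, and these values overlap.

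Across the full course, between day −2 and day 2, 26 of the 40 control genes fell and 5 rose, against 28.6% and 28.1% of all genes tested, with a median of −0.19. This comparison uses the same subconfluent and overconfluent libraries as the comparisons above and is not independent of them. With library totals in place of TMM 18 fell and 8 rose. CDC20 changed by −0.79 (SE 0.046, adjusted p = 5.23e-14), which is 0.578 times the subconfluent level, FOXM1 by −0.78 (SE 0.049, adjusted p = 2.18e-13) and CCNA2 by −0.74 (SE 0.046, adjusted p = 2.59e-13). CCNB1, PLK1 and MKI67 fell by like amounts. CCNB1 changed by −0.47 (SE 0.046, adjusted p = 1.29e-09), PLK1 by −0.46 (SE 0.048, adjusted p = 5.09e-09) and MKI67 by −0.49 (SE 0.050, adjusted p = 4.23e-09). CDK1 changed by −0.11 (SE 0.047, adjusted p = 0.0484).

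The 5 genes that stood higher in overconfluent than in subconfluent control cells were CENPE (0.32), HMMR (0.30), TOP2A (0.26, SE 0.045, adjusted p = 2.3e-05), KIF18A (0.25) and NUF2 (0.14). With the adjustment for GC content described below the rises numbered 3, and KIF18A and NUF2 were not called higher. HMMR, which encodes a protein of the spindle and centrosome, was at 50.9, 49.2 and 50.4 CPM in subconfluent and 61.2, 63.7 and 62.3 CPM in overconfluent cells, without overlap. Overconfluent TOP2A, at 928, 862 and 896 CPM, lay between its subconfluent and confluent levels. Thus, the total level of the 40 genes, 7647 ± 135 CPM (SD, n = 3) in subconfluent cells, was 8170.3 ± 101 CPM at confluence and 6471 ± 75.5 CPM in overconfluent cells, while its parts moved unequally.

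The same steps were examined in the MMP2sh1 and MMP2sh2 lines, whose libraries are separate from those of the control line. At confluence 18 of the 40 genes rose and 6 fell in MMP2sh1 cells, against 15% and 17.7% of all genes, with a median of 0.091 that was 0.14 without subconfluent replicate 1 and 0.055 without subconfluent replicate 2. In MMP2sh2 cells 17 rose and 5 fell, against 13.9% and 16.4%, with a median of 0.12. With library totals in place of TMM, 22 rose and 4 fell in MMP2sh1, and 22 rose and 3 fell in MMP2sh2. CENPE led in both lines. It was at 68.02, 60.01 and 60.7 CPM and then 108, 99.6 and 97.1 CPM in MMP2sh1, a change of 0.70 (SE 0.062, adjusted p = 2.67e-08). In MMP2sh2 it was at 60.4, 65.5 and 53.99 CPM and then 90.8, 88.9 and 102 CPM, a change of 0.66 (SE 0.071, adjusted p = 1.39e-07). CENPF came next, with 0.60 (SE 0.046, adjusted p = 3.31e-09) in MMP2sh1 and 0.58 (SE 0.050, adjusted p = 4.21e-09) in MMP2sh2. The third largest change was that of ASPM in MMP2sh1 at 0.42 (SE 0.061, adjusted p = 1.67e-05) and that of NUF2 in MMP2sh2 at 0.48 (SE 0.062, adjusted p = 1.75e-06).

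After confluence 36 of the 40 genes fell in MMP2sh1 cells and 33 in MMP2sh2 cells, against 23% and 23% of all genes tested, with medians of −0.30 and −0.30. By edgeR 0 rose in either line, while 23.1% and 22.5% of all genes rose, 0 were higher at an unadjusted p under 0.05, and 0 rose by DESeq2. CDC20, CCNA2, AURKA and ANLN fell the most. In MMP2sh1 CDC20 changed by −0.69 (SE 0.043, adjusted p = 4.45e-12), CCNA2 by −0.67 (SE 0.048, adjusted p = 4.14e-11) and AURKA by −0.60 (SE 0.051, adjusted p = 1e-09). In MMP2sh2 CCNA2 changed by −0.65 (SE 0.056, adjusted p = 1.07e-10), CDC20 by −0.61 (SE 0.044, adjusted p = 2.08e-12) and ANLN by −0.57 (SE 0.046, adjusted p = 1.78e-11). CDC20 was at 349.9, 339 and 343 CPM in confluent and 211, 214 and 218 CPM in overconfluent MMP2sh1 cells, and at 361, 383 and 376 CPM and 239.8, 243 and 250.1 CPM in MMP2sh2 cells. Neither line had an overlap.

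Over the whole expansion 23 genes fell and 4 rose in MMP2sh1 (27.7% and 27.3% of all genes, median of the 40 −0.20), and 20 fell and 10 rose in MMP2sh2 (27.1% and 27.7%, median −0.18). CDC20 and FOXM1 fell the most in either line, as they did in the control. CDC20 changed by −1.02 (SE 0.056, adjusted p = 2.93e-13) in MMP2sh1 and −0.88 (SE 0.059, adjusted p = 4.66e-14) in MMP2sh2. FOXM1 changed by −0.82 (SE 0.056, adjusted p = 1.26e-11) and −0.84 (SE 0.055, adjusted p = 2.62e-14). The third was AURKA in MMP2sh1, at −0.75 (SE 0.063, adjusted p = 4.6e-10), and PLK1 in MMP2sh2, at −0.72 (SE 0.059, adjusted p = 5.87e-12).

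The calls were then read across the 3 lines. At confluence 15 of the 40 genes rose in each of the 3 lines, against 7.37% of the genes tested in all of them. They were CDK1, TTK, BUB1B, CENPE, CENPF, NDC80, NUF2, KIF14, KIF18A, NUSAP1, ASPM, HMMR, DLGAP5, TOP2A and ECT2. FOXM1, PLK1 and CDC20 fell at confluence in each line, 3 of 40 against 10.6%. After confluence 29 of the 40 fell in each line, against 15.2%, and SPC25 and HMMR fell in no line. With the adjustment for GC content described next, HMMR was called lower after confluence in MMP2sh2. Over the whole expansion 20 fell in each line, against 21.6%, among them CCNA2, CCNB1, CCNB2, FOXM1, PLK1, AURKA, AURKB, BIRC5, CDC20, CENPA, TPX2, MKI67 and ANLN. CENPE, HMMR and TOP2A rose over the whole expansion in each line, 3 of 40 against 19.4% of all genes. With that adjustment, HMMR and TOP2A were no longer called higher over the whole expansion in each line (0.078 and 0.11 in MMP2sh1), which left CENPE. MKI67 (−0.10 in MMP2sh1), PTTG1, KIF2C and PRC1 dropped out of the genes that fell over it in each line. CDK1, TTK, BUB1B and ECT2 entered, so that there were again 20. The map of changes by role shows these columns side by side.

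**Figure D3:**
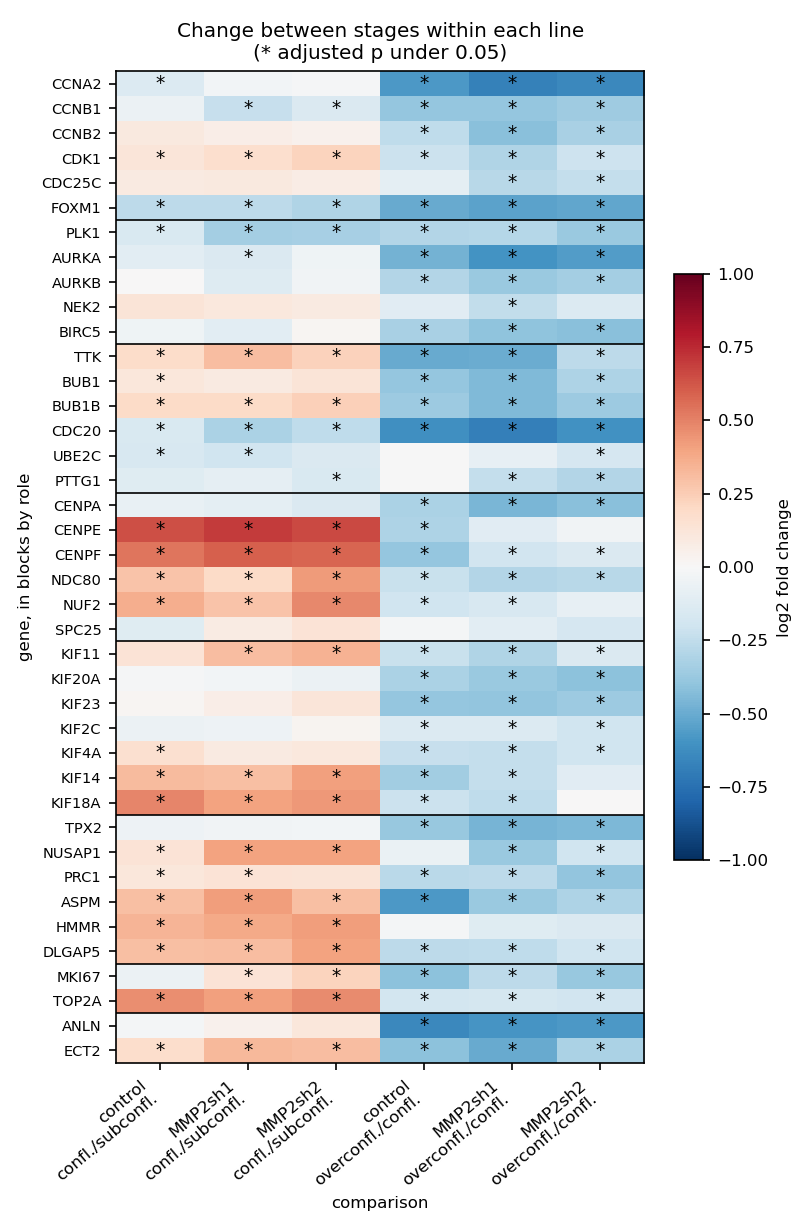
The log2 fold change (colour, from −1 in blue to 1 in red) of the 40 mitosis genes (rows, in blocks by role) from subconfluent to confluent cells (left 3 columns) and from confluent to overconfluent cells (right 3 columns) in the control, MMP2sh1 and MMP2sh2 lines, with an asterisk where the adjusted p is under 0.05. The left columns hold 18, 18 and 17 rises, and the right columns 33, 36 and 33 falls.

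The change at confluence followed the base composition of the transcripts and, less closely, their length. The GC content of the canonical transcript of the 40 genes runs from 35.1% (CENPE) to 57.1% (PLK1). Over the 40 genes, Pearson's r of the log2 fold change with GC content was −0.71 in control, −0.80 in MMP2sh1 and −0.79 in MMP2sh2 cells, a description over genes measured in the same 6 libraries of a line. Over all genes with a GC value it was −0.094, −0.21 and −0.22. For the step after confluence it was −0.069, −0.22 and −0.51 over the 40 genes, and for the whole expansion −0.56, −0.68 and −0.75. With transcript length, r at confluence was 0.52, 0.60 and 0.56 over the 40 genes, against 0.039, 0.060 and 0.076 over all genes. The fits were repeated with a GC offset, in which a smooth of log2 level on GC content was taken out of each library before the fit, an alternative added after the data had been seen. The rises at confluence then numbered 13, 13 and 16 in the 3 lines and the falls after confluence 33, 37 and 38. The genes that rose at confluence in each line with the offset were 9, namely CENPE, CENPF, KIF14, KIF18A, PRC1, ASPM, HMMR, DLGAP5 and TOP2A. CDK1, a gene that rose at confluence without the offset, was then at −0.0029 in control and −0.037 in MMP2sh1 cells. In control cells ECT2 was then not called higher, and of the 6 checkpoint and anaphase genes 1 rose in place of 3. CCNB1 and FOXM1 were lower at confluence in each line with the offset, and CDC20 was at −0.073 in control. Over the whole expansion of MMP2sh2 cells 26 fell and 5 rose with the offset, in place of 20 and 10. What the relations to GC content and length reflect was not tested.

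**Figure D4:**
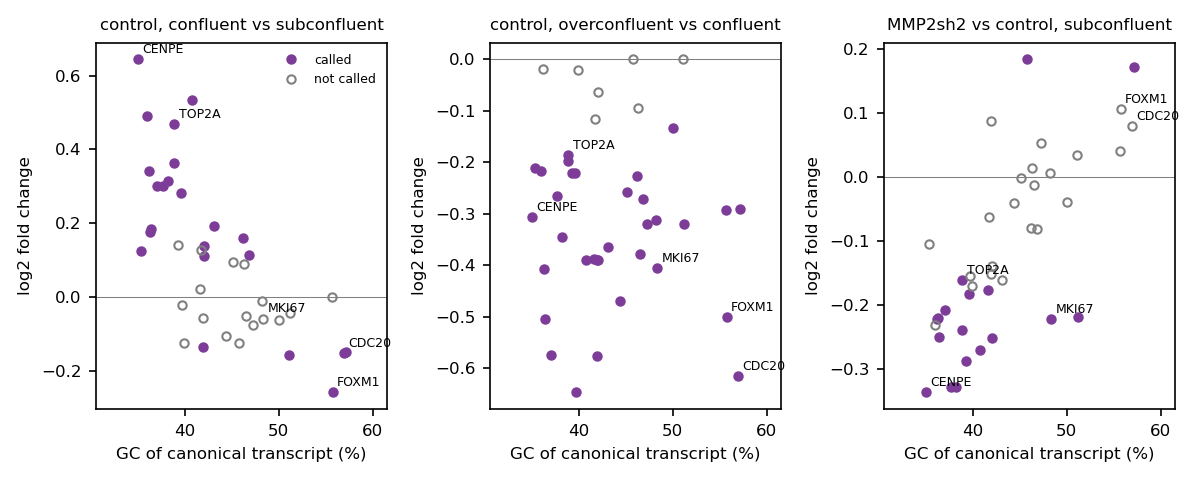
The log2 fold change (vertical axes) of the 40 mitosis genes against the GC content of the canonical transcript in percent (horizontal axes) in 3 comparisons, with filled points where the adjusted p is under 0.05 and open points elsewhere. At confluence and in the subconfluent comparison of MMP2sh2 with control the change follows GC content (r = −0.71 and 0.73), whereas after confluence r is −0.069.

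The promoters of the genes were read for the motifs of this gene class, TTTGAA (the cell cycle genes homology region, CHR, to which MuvB binds) and CCAAT (bound by NF-Y), on both strands of the window from 250 bases before to 50 after the RefSeq start site in GRCh38.p14. A window was matched for 34 of the 40 genes, and the other 6 were AURKA, BIRC5, FOXM1, TTK, TPX2 and UBE2C. TTTGAA was in 24 of the 34 windows (70.6%) and in 15.2% of 35116 windows of all genes. CCAAT was in 27 (79.4%) and in 34.6% of all. The windows with both were 20 of 34 (58.8%) against 5.90% of all. As examples, the windows of 4 genes with both motifs are shown, with the letters of both motifs on either strand in capitals. They were picked as the genes with both motifs that fell the most in control cells over the whole expansion. They lie at chr1:43358731-43359030 (CDC20, plus strand), chr10:128126374-128126673 (MKI67, minus strand), chr16:23678639-23678938 (PLK1, plus strand) and chr2:26785806-26786105 (CENPA, plus strand). In MKI67 the second TTTGAA and a reverse CCAAT overlap.
CDC20: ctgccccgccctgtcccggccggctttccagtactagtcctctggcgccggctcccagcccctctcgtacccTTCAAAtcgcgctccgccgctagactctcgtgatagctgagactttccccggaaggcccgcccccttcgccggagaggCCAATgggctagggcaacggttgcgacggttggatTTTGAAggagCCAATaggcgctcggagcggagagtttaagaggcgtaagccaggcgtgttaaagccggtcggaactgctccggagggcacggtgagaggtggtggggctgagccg
MKI67: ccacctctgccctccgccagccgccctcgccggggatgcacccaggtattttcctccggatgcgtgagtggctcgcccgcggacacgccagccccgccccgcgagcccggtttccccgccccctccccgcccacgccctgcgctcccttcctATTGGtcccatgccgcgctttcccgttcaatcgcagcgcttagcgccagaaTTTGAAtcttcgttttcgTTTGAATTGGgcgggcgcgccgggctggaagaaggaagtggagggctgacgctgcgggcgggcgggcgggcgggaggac
PLK1: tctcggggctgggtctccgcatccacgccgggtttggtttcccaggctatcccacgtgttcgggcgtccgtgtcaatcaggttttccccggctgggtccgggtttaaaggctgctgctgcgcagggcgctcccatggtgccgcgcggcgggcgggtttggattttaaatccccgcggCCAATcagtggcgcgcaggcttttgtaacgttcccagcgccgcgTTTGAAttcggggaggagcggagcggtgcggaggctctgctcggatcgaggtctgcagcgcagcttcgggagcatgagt
CENPA: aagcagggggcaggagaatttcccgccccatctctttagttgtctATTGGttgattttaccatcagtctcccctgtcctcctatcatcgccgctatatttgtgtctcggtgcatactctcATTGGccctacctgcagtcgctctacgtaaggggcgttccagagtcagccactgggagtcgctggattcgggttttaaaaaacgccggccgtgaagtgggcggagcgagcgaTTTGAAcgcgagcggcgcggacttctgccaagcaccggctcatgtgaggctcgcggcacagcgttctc

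Counted from the start site, the forward TTTGAA begins at −65 in CDC20, at −47 and −29 in MKI67, at −29 in PLK1 and at −18 in CENPA. CDC20 also has a reverse copy at −178. The CCAAT box nearest the start site begins at −55 in CDC20, −24 in MKI67, −73 in PLK1 and −130 in CENPA. The changes of these 4 genes over the whole expansion of control cells were −0.79, −0.49, −0.46 and −0.42. Other genes with both motifs rose over the same course, among them TOP2A (0.26), HMMR (0.30) and KIF18A (0.25, not called with the GC offset). CCNA2 (−0.74) and CCNB1 (−0.47) fell without TTTGAA in the window, and ANLN (−0.69) fell without CCAAT. Whether the motifs relate to the changes was not tested. A match describes the letters of the window and was not tested as a binding site.

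To determine how depletion of MMP-2 relates to the mitosis genes, each shRNA line was compared with control cells at each stage. The differences were small, and more of the genes were lower than higher in the shRNA lines. In subconfluent MMP2sh1 cells 6 of the 40 genes were lower and 1 higher, against 6.14% and 5.42% of all genes, with a median of −0.022 that was −0.078 without MMP2sh1 replicate 1 and 0.0033 without MMP2sh1 replicate 3. In confluent cells 7 were lower and 1 higher, against 8.58% and 8.26%, with a median of −0.040. In overconfluent cells 4 were lower and 1 higher, against 7.11% and 7.68%, with a median of −0.065. In subconfluent MMP2sh2 cells 16 were lower and 2 higher, against 6.33% and 4.71%, with a median of −0.15. The confluent counts were 10 lower and 1 higher, against 5.81% and 7.07%, with a median of −0.048. The overconfluent counts were 4 lower and 0 higher by edgeR (0 at an unadjusted p under 0.05, 0 by DESeq2), against 3.43% and 2.89%, with a median of −0.053.

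These counts rest on few libraries. With the GC offset, 4 genes were lower and 2 higher in subconfluent MMP2sh2 cells in place of 16 and 2, and r of the change with GC content over the 40 genes was 0.73 there (0.32 over all genes). Without control replicate 3 5 were called in that comparison, without control replicate 1 there were 7, and without MMP2sh2 replicate 1 or replicate 2 there were 11. In subconfluent MMP2sh1 cells the 7 calls became 1 without control replicate 3, 3 without control replicate 1 or MMP2sh1 replicate 2, and 11 without MMP2sh1 replicate 1. In confluent MMP2sh1 cells the 8 calls became 3 without control replicate 1 and 4 without MMP2sh1 replicate 2. In confluent MMP2sh2 cells the 11 calls became 7 without control replicate 3 and 5 without MMP2sh2 replicate 2. In overconfluent MMP2sh1 cells the 5 calls became 1 without control replicate 2 or replicate 3, 3 without MMP2sh1 replicate 2, and 10 (9 lower) with the GC offset. In overconfluent MMP2sh2 cells the 4 calls became 0 without control replicate 2, control replicate 3 or MMP2sh2 replicate 2, 1 without MMP2sh2 replicate 1 and 2 without control replicate 1. With library totals in place of TMM, 6, 8 and 7 genes were lower and 0, 1 and 0 higher in subconfluent, confluent and overconfluent MMP2sh1 cells, and 19, 14 and 4 were lower and 0 higher at any stage in MMP2sh2 cells.

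Kinetochore genes were among the lower ones in subconfluent and confluent cells of both shRNA lines, which share their control libraries at each stage. In subconfluent cells 2 of 6 were lower in MMP2sh1, also with the GC offset, and 4 of 6 in MMP2sh2, which became 0 of 6 with the offset. Of all genes 6.14% and 6.33% were lower there. In confluent cells 3 of 6 were lower in MMP2sh1 and 2 of 6 in MMP2sh2, with and without the offset, against 8.58% and 5.81%. In overconfluent cells 0 of 6 were called lower by edgeR in either line, against 7.11% and 3.43%. With the offset 1 of 6 was lower in overconfluent MMP2sh1 cells. Subconfluent CENPE was at 74.1, 71.4 and 79.3 CPM in control, 68.02, 60.01 and 60.7 CPM in MMP2sh1 and 60.4, 65.5 and 53.99 CPM in MMP2sh2 libraries. Every shRNA library lay below every control library. The change was −0.26 (SE 0.066, adjusted p = 0.0113) in MMP2sh1 and −0.34 (SE 0.071, adjusted p = 0.00327) in MMP2sh2, which was −0.13 and not called with the GC offset. At confluence it was −0.20 (SE 0.051, adjusted p = 0.00381) and −0.32 (SE 0.054, adjusted p = 5.4e-05). CENPF was −0.21 (SE 0.059, adjusted p = 0.0199) in subconfluent MMP2sh1 and −0.27 (SE 0.061, adjusted p = 0.00496) in subconfluent MMP2sh2 cells, the latter −0.14 and not called with the offset. In confluent cells CENPF was −0.14 (SE 0.041, adjusted p = 0.0122) and −0.22 (SE 0.043, adjusted p = 0.000328). KIF18A in confluent cells was −0.17 (SE 0.059, adjusted p = 0.0414) in MMP2sh1 and −0.29 (SE 0.061, adjusted p = 0.000986) in MMP2sh2.

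MKI67 (chromosome 10, 129894923 to 129924687, minus strand) was lower in subconfluent cells of both shRNA lines, with and without the GC offset. It was at 721, 711 and 778 CPM in control, 617, 648 and 617 CPM in MMP2sh1 and 654, 661 and 603 CPM in MMP2sh2 libraries, again without overlap with the control. The change was −0.24 (SE 0.053, adjusted p = 0.00396) and −0.22 (SE 0.055, adjusted p = 0.0104). NUSAP1, which bundles spindle microtubules, was at 181, 171 and 182 CPM in control, 154, 158 and 157 CPM in MMP2sh1 and 151, 159 and 143 CPM in MMP2sh2 libraries. Its change was −0.19 (SE 0.054, adjusted p = 0.02) and −0.25 (SE 0.057, adjusted p = 0.00529), called with the offset as well. ECT2 was −0.20 (SE 0.059, adjusted p = 0.0224) and −0.22 (SE 0.059, adjusted p = 0.0169), and was called in neither line with the offset. The subconfluent differences also went with transcript length over the 40 genes, of which MKI67 has the longest, at 12716 bases. Here r with length was −0.57 in MMP2sh1 and −0.62 in MMP2sh2, against −0.096 and −0.13 over all genes with a length. With an offset for length, made like the GC offset, 5 genes were lower in subconfluent MMP2sh1 cells and 15 in MMP2sh2. What this relation reflects was not tested.

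Other genes were called in MMP2sh1 or in MMP2sh2. In subconfluent MMP2sh1 cells ANLN was −0.22 (SE 0.060, adjusted p = 0.0183) and AURKA was higher, at 0.18. In confluent MMP2sh1 cells PLK1 was at 165, 156 and 157 CPM against 188, 180.5 and 189 CPM in control, a change of −0.22 (SE 0.043, adjusted p = 0.000259). In overconfluent MMP2sh1 cells NUSAP1 was −0.22 (SE 0.054, adjusted p = 0.00403), CDC20 −0.20 (SE 0.051, adjusted p = 0.00773), PLK1 −0.20, UBE2C −0.20 and ASPM higher by 0.18. In subconfluent MMP2sh2 cells 4 of 6 spindle-associated genes and 3 of 7 kinesins were lower, which became 2 of 6 and 0 of 7 with the GC offset. KIF14 was −0.33 (SE 0.066, adjusted p = 0.00205) and DLGAP5, which stabilises spindle fibres, was −0.33 (SE 0.053, adjusted p = 0.000259), whereas PLK1 and PTTG1 were higher, at 0.17 and 0.18. With the offset KIF14 (−0.16) and PLK1 (0.075) were no longer called, while DLGAP5 (−0.16) and PTTG1 (0.22) were. At confluence KIF14 was −0.24 (SE 0.060, adjusted p = 0.00669), and −0.15 and not called with the offset. In overconfluent MMP2sh2 cells HMMR was −0.26 (SE 0.071, adjusted p = 0.0165), BIRC5 −0.24 (SE 0.062, adjusted p = 0.0115), PRC1 −0.18 (SE 0.057, adjusted p = 0.0425) and TOP2A −0.15. BIRC5 was called lower in MMP2sh2 cells at every stage, with −0.22 in subconfluent and −0.15 in confluent cells.

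**Figure D5:**
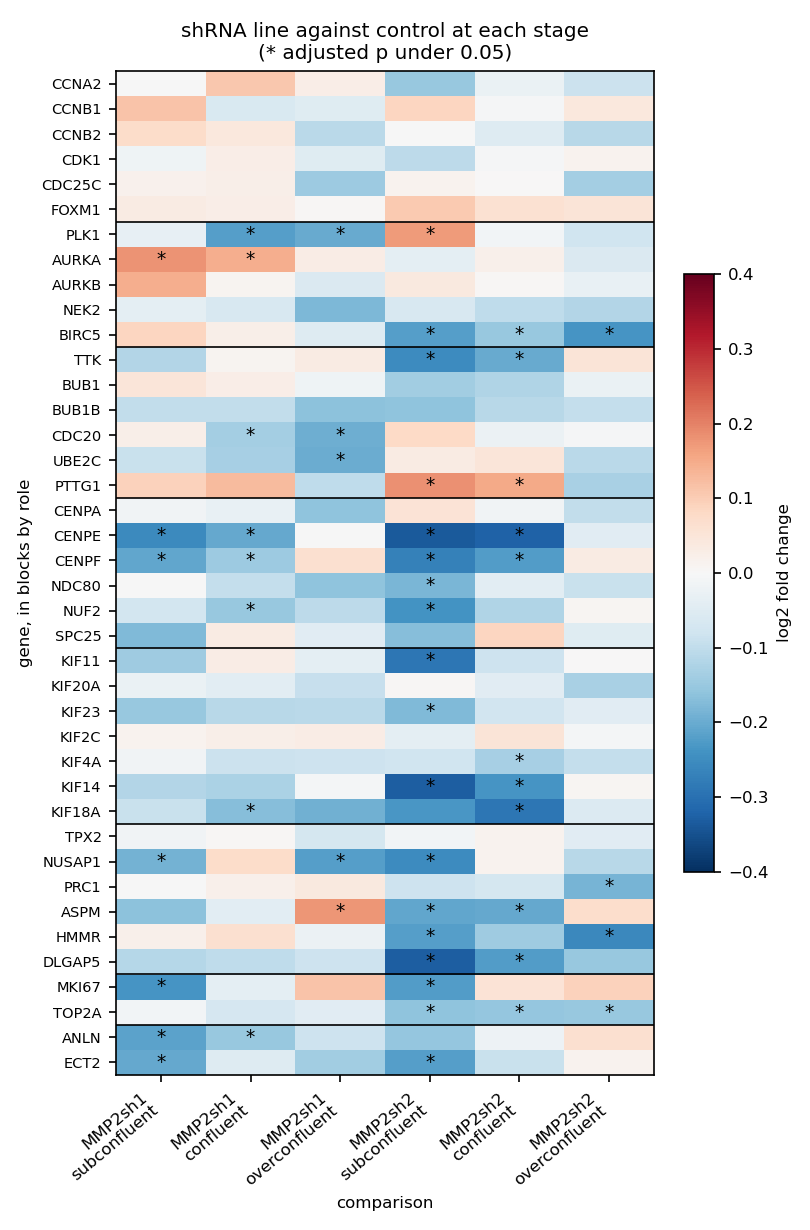
The log2 fold change (colour, from −0.4 in blue to 0.4 in red) of the 40 mitosis genes (rows, in blocks by role) in MMP2sh1 and MMP2sh2 cells against control cells at each stage (columns), with an asterisk where the adjusted p is under 0.05. The subconfluent MMP2sh2 column has the most asterisks, 18, and the scale is narrower than in the map of stages.

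Whether the shRNA lines differed from control in their course over the expansion was tested as an interaction, the change from subconfluent to overconfluent cells in the shRNA line minus that in control. In MMP2sh1, 3 of the 40 genes had a positive interaction, against 4.52% of all genes, and 0 a negative one by edgeR, against 2.88% (4 at an unadjusted p under 0.05 and 1 by DESeq2). In MMP2sh2 there were 4 positive and 2 negative ones, against 2.71% and 2.28%. With an offset for transcript length, made like the GC offset, 0 of these 9 calls were left, and with the GC offset MKI67 and ASPM were left of the 3 in MMP2sh1, and MKI67 and PTTG1 of the 6 in MMP2sh2. MKI67 was called in both fits, which share the control libraries. Its level was 737 ± 35.7 and then 531 ± 34.01 CPM (SD, n = 3) in control, 627 ± 18.3 and then 575 ± 31.9 CPM in MMP2sh1 and 639 ± 31.8 and then 564 ± 16.9 CPM in MMP2sh2 cells. The interaction was 0.35 (SE 0.077, adjusted p = 0.00395) in MMP2sh1 and 0.31 (SE 0.075, adjusted p = 0.01) in MMP2sh2. CENPF had 0.28 (SE 0.084, adjusted p = 0.0395) and 0.30 (SE 0.080, adjusted p = 0.0227). ASPM had 0.34 (SE 0.089, adjusted p = 0.0154) in MMP2sh1. It was at 106 ± 7.18 and then 87.3 ± 3.99 CPM in control, and at 94.99 ± 6.29 and then 98.6 ± 2.53 CPM in MMP2sh1 cells.

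In MMP2sh2 the positive interactions further held KIF11, the motor that separates the spindle poles, at 0.28 (SE 0.086, adjusted p = 0.0474), and KIF14 at 0.33 (SE 0.090, adjusted p = 0.0249). PLK1 had −0.26 (SE 0.075, adjusted p = 0.0385) and PTTG1 −0.32 (SE 0.088, adjusted p = 0.0278). PTTG1 was at 109, 113 and 94.8 CPM in subconfluent and 90.7, 98.5 and 99.9 CPM in overconfluent control cells, and at 118, 123 and 124 CPM and 85.5, 83.01 and 94.8 CPM in MMP2sh2 cells. The overconfluent groups overlap, while the subconfluent groups do not. The interactions followed transcript length over the 40 genes, with r = 0.78 in MMP2sh1 and 0.70 in MMP2sh2, against 0.082 and 0.057 over all genes with a length. With GC content r was −0.46 and −0.66 over the 40 genes. With the length offset the MKI67 interaction was 0.18 (adjusted p = 0.104 by edgeR) in MMP2sh1 and 0.19 (adjusted p = 0.0575) in MMP2sh2. With library totals in place of TMM the interactions were 2 positive and 1 negative in MMP2sh1 and 6 and 0 in MMP2sh2. Of the 3 calls in MMP2sh1, 1 was left without control subconfluent replicate 3, control overconfluent replicate 2 or MMP2sh1 subconfluent replicate 3. Of the 6 calls in MMP2sh2, 1 was left without control subconfluent replicate 3 or control overconfluent replicate 3, 2 without control overconfluent replicate 2 or MMP2sh2 overconfluent replicate 3, and 3 without control subconfluent replicate 1 or MMP2sh2 subconfluent replicate 3.

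The shRNA lines were also compared with each other. In subconfluent cells 3 genes were higher and 1 lower in MMP2sh1 than in MMP2sh2, against 5.01% and 5.69% of all genes. They were BIRC5 (0.30, SE 0.064, adjusted p = 0.00217), AURKA (0.22, SE 0.063, adjusted p = 0.0252), DLGAP5 (0.21) and PLK1 (−0.21). In confluent cells 8 were higher and 4 lower, against 8.9% and 9.62%. TTK led the higher ones at 0.22 (SE 0.064, adjusted p = 0.0147) with HMMR at 0.21 (SE 0.063, adjusted p = 0.017), and PLK1 was lower at −0.21 (SE 0.041, adjusted p = 0.000282). With library totals 13 were higher and 3 lower, and with the GC offset 3 and 6. In overconfluent cells PRC1 was higher at 0.22 (SE 0.060, adjusted p = 0.0199) and CDC20 lower at −0.19 (SE 0.051, adjusted p = 0.0186), 1 of 40 each, against 4.59% and 3.27%. The 4 subconfluent calls became 1 without MMP2sh2 replicate 2 and 2 without MMP2sh1 replicate 1, MMP2sh2 replicate 1 or MMP2sh2 replicate 3. The 12 confluent calls became 4 without MMP2sh1 replicate 2, 5 without MMP2sh1 replicate 1 and 6 without MMP2sh2 replicate 2. The 2 overconfluent calls became 0 without MMP2sh1 replicate 2, MMP2sh2 replicate 1 or MMP2sh2 replicate 2, and 1 without MMP2sh1 replicate 1.

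Further genes of mitosis and of the neighbouring pathways were counted in the same fits. After confluence in control cells 38 of 48 other mitosis genes fell, as did 27 of 30 DNA replication genes and 8 of 15 APC/C subunits, against 20.1% of all genes that fell and 21.3% that rose. Of the 13 genes of MuvB, DREAM and B-MYB 5 fell and 2 rose, and of 14 p53 and CDK inhibitor genes 3 fell and 6 rose. The medians were −0.34, −0.34, −0.24, −0.041 and 0.054, beside −0.30 for the 40. At confluence 13 of the 48 other mitosis genes rose and 10 fell, and 7 of 30 DNA replication genes rose and 5 fell, against 16.4% and 19.1% of all genes, so that several of these counts lie near the share over all genes. At that step 1 APC/C subunit rose and 2 fell, 5 genes of MuvB, DREAM and B-MYB rose and 2 fell, and 5 p53 and CDK inhibitor genes rose and 4 fell.

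Over the whole expansion of control cells, HN1 changed by −0.9997 and PKMYT1, which inhibits CDK1, by −0.77, whereas the kinesins KIF15 and KIF20B rose by 0.44 and 0.18. In the APC/C, ANAPC1, which has close pseudogene copies and so an uncertain count, changed by −0.95, ANAPC15 by −0.66 and ANAPC16 by 0.24. The B-MYB gene MYBL2 changed by −0.71, from 545 to 337 CPM, and its relative MYBL1 by −0.94, while TFDP2 and E2F5, partners in E2F complexes, rose by 0.64 and 0.58. The replication licensing genes CDC6 and ORC1 changed by −0.68 and −0.54. PHLDA3 and GADD45A, targets of p53, changed by −0.9990 and −0.78, and CCNG2, a cyclin raised in resting cells, rose by 1.17, from 56.3 to 128 CPM. CDKN2B, a CDK inhibitor, was near 0 throughout, at 0.0406 and 0.617 CPM.

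Pairs of the 40 genes were ranked by Pearson's r of log2 CPM over the 27 libraries, which fall into 9 groups and are not independent points, as a description. CCNB1 and CDC20 were the most alike at 0.98, followed by FOXM1 and CDC20 at 0.98, CCNA2 and AURKA at 0.97 and KIF23 and ANLN at 0.97. CENPE and CENPF, at 0.96, were the closest pair of kinetochore genes among the 8 highest. The least alike were UBE2C and CENPE at −0.61, PLK1 and CENPE at −0.60 and FOXM1 and CENPE at −0.58. The median over 780 pairs was 0.57, and 114 pairs were negative. CENPE, which was highest at confluence, was a partner in each of the 3 least alike pairs. Its transcript has the lowest GC content of the 40, at 35.1%, against 57.1% for PLK1, 55.7% for FOXM1 and 51.1% for UBE2C. What this unlikeness reflects was not tested.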

How the data were processed

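Libraries of poly(A) RNA were trimmed with Trim Galore 0.6.0, aligned to hg19 with STAR 2.7.3a and counted per gene symbol with HTSeq 2.0.0 (union mode, exons, unstranded, minimum alignment quality 10), and the authors deposited the raw counts of each library. The 5 summary lines that name no gene held 16.8% to 19.1% of the counts and were left out. Without strand, overlapping and antisense genes cannot be separated, and counts of genes with near-identical copies are uncertain. The 27 replicate pairs within groups differed by more than sampling noise (chi-square per degree of freedom 4.74 to 24.6), so none was taken for a repeat of another.

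From the counts, each comparison was fitted on its own libraries (interactions on the 12 libraries of 2 lines) in edgeR 4.0.16 under R 4.3.3, with TMM factors, low counts removed by filterByExpr (10 per library, 15 in total) and quasi-likelihood F-tests, whose p-values were adjusted by the Benjamini-Hochberg method over all genes tested and read at 0.05. The SE is the absolute log2 fold change divided by the square root of F. CPM values use TMM factors over the 27 libraries. The study itself used DESeq2, which is given as an alternative (version 1.42.0). GC and length offsets subtracted a lowess (span 0.3) per library. Scripts were tested on simulated data. Further alternatives were scaling, filters, a fit of all 27 libraries, a replicate block and leaving out each library. Samples were not treated as paired by replicate number: in 0 of 18 comparisons did every same-numbered pair correlate above 0.1 (range −0.025 to 0.036, 22107 genes). Whether same-numbered replicates shared a culture or a batch cannot be told from these correlations.

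The members, roles and pathway lists were chosen with earlier results of these data known. Full statistics were given for the 3 called members with the largest change in a comparison, for 7 set genes in the control expansion and for members called alike in both shRNA lines or in an interaction. Of each pathway list, the 2 called genes with the largest rise and fall over the control expansion were named. Promoter windows came from RefSeq, and gene positions from a GRCh37 annotation.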

Additional observations from a re-analysis of the deposited data

Results flagged for a closer look

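The change from subconfluent to overconfluent cells differed between MMP2sh1 and control cells, by the interaction term in edgeR, for MKI67 (0.35 on the log2 scale), ASPM (0.34) and CENPF (0.28). Between MMP2sh2 and control cells it differed for KIF14 (0.33), MKI67 (0.31), CENPF (0.30), KIF11 (0.28), PTTG1 (−0.32) and PLK1 (−0.26). Adjusted p-values over all genes tested ran from 0.00395 (MKI67 in MMP2sh1) to 0.0474 (KIF11 in MMP2sh2). With the length offset, chosen after seeing the data, 0 of these 9 calls were left, and with the GC offset those of MKI67 and ASPM in MMP2sh1 and of MKI67 and PTTG1 in MMP2sh2 were left. The 2 fits share the control libraries.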

How the results depend on the processing

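Of the 339 member calls, scaling by RLE left 334 past the threshold in the same direction, library totals 301, the strict count filter 334, no filter 319, DESeq2 on the same libraries 336 and on all 27 libraries 311, edgeR on all 27 libraries 307, the replicate block 324, and, both chosen after seeing the data, the GC offset 279 and the length offset 310. Calls that changed sign were CDK1 at confluence in control (−0.0029 with the GC offset, −0.0032 with the GC offset and replicate block) and in MMP2sh1 (−0.037 and −0.039), and DLGAP5 over the whole expansion in MMP2sh2 (−0.017 and −0.019), and the cause was not tested. Since it is not known whether same-numbered replicates shared a culture, the replicate block is given as a check only. It gave 22, 33 and 30 calls in the control steps at confluence, after it and over the whole expansion, 3 in overconfluent MMP2sh1 against control, and 10 and 5 in subconfluent and overconfluent MMP2sh1 against MMP2sh2.

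With library totals the median at confluence was 0.18 in control, 0.17 in MMP2sh1 and 0.19 in MMP2sh2, over the whole expansion −0.093, −0.099 and −0.041, after confluence in MMP2sh2 −0.24, in confluent MMP2sh1 and MMP2sh2 against control −0.053 and −0.089, and in confluent MMP2sh1 against MMP2sh2 0.061. With the GC offset, without and with the replicate block, it was 0.063 and 0.065 at confluence in control, 0.027 and 0.027 in MMP2sh1, and 0.072 and 0.070 in MMP2sh2. Over the whole expansion it was −0.27 and −0.27 in MMP2sh1 and −0.25 and −0.25 in MMP2sh2. It was −0.033 and −0.033 in subconfluent MMP2sh2 against control (6 and 5 calls), and 0.0042 and 0.0039 in confluent MMP2sh1 against MMP2sh2. In the MMP2sh1 interaction it was −0.092 and −0.093. The MMP2sh2 interaction had 2 and 2 calls, overconfluent MMP2sh1 against MMP2sh2 6 and 6, and overconfluent MMP2sh1 against control 10 with the GC offset alone. With the length offset there were 0 calls in either interaction and 3 in overconfluent MMP2sh1 against control, and the median was 0.13 and 0.16 at confluence in control and MMP2sh1 and −0.027 in confluent MMP2sh1 against control. GC and length values exist for all 40 genes and for 79.9% and 79.7% of the genes tested in the MMP2sh1 and MMP2sh2 interactions. Fitting all 27 libraries by edgeR and DESeq2 gave 3 and 4 calls in confluent MMP2sh1 against control, 8 and 10, 3 and 5, and 4 and 4 in subconfluent, confluent and overconfluent MMP2sh1 against MMP2sh2, 6 by edgeR in confluent MMP2sh2 against control and 5 by DESeq2 in the MMP2sh1 interaction. The cause of these shifts was not tested.

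Leaving out 1 library at a time gave 1 to 11, 3 to 8 and 1 to 6 calls in subconfluent, confluent and overconfluent MMP2sh1 against control, 5 to 13, 5 to 9 and 0 to 6 in MMP2sh2 against control, and 1 to 5, 4 to 13 and 0 to 3 in MMP2sh1 against MMP2sh2. It gave 14 to 22 at confluence in control and 1 to 4 and 1 to 6 in the interactions. The median ran from −0.078 to 0.0033 in subconfluent and −0.079 to −0.038 in overconfluent MMP2sh1 against control, from −0.082 to −0.033 in overconfluent MMP2sh2 against control, from 0.055 to 0.14 at confluence in MMP2sh1, from 0.014 to 0.082 and −0.043 to 0.011 in subconfluent and overconfluent MMP2sh1 against MMP2sh2, from −0.049 to −0.019 in confluent MMP2sh1 and from −0.17 to −0.097 in subconfluent MMP2sh2 against control, from 0.087 to 0.11 at confluence in control, from −0.34 to −0.29 after confluence in MMP2sh1, from 0.075 to 0.14 at confluence in MMP2sh2, from 0.022 to 0.059 in confluent MMP2sh1 against MMP2sh2, and from −0.099 to 0.0048 and −0.016 to 0.089 in the interactions. The lowest count of any of the 40 genes in a library was 958, and precision rests on 3 replicates per group.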
